A study of Homo sapiens with 16 samples.

Results

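ATF4 and 9 genes tied to it in the integrated stress response were examined: the transcription factors ATF4, ATF3 and DDIT3, the stress effectors DDIT4, TRIB3 and CHAC1, and the amino acid enzymes ASNS, PHGDH, PSAT1 and SHMT2. They were taken by symbol as the rows of the deposited count table whose Ensembl identifier carries 1 of these symbols, a list drawn up with earlier results of these data known. All 10 were found among 58787 identifiers, and all 10 passed the filter on low counts, which left 14193 genes to test. The libraries came from IMR32, a human neuroblastoma line with amplified MYCN, labelled as neuroblasts from brain. The cells received si45, si46 or si47, 3 small interfering RNAs (siRNAs) that target TPX2, or the control siNTC, taken here as a non-targeting siRNA, with 4 biological replicates of each and 16 libraries in all. The deposited column names place every group at 48 h. No library comes from cells without an siRNA, and 1 cell line says nothing of other lines. All comparisons with siNTC share the same 4 control libraries. In bulk RNA a change in the share of cells that express a gene and a change in RNA per cell cannot be told apart.

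The integrated stress response starts when a kinase such as PERK, GCN2, PKR or HRI phosphorylates the translation factor eIF2. Most protein synthesis then slows, while the ATF4 messenger RNA is translated more, because short upstream reading frames in its leader hold ribosomes back in unstressed cells. The ATF4 protein then acts with partners at C/EBP-ATF response elements of genes for amino acid synthesis, amino acid transport and feedback control. ATF4 protein can therefore rise without its messenger RNA, and read counts do not measure the protein. ATF3 and DDIT4 are also known targets of p53, the tumour suppressor that responds to DNA damage and failed mitosis.

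The core of the C/EBP-ATF response element, TGATGNAAN with N for any base, was searched for on both strands of promoter windows that run from 250 bases before to 50 bases after a RefSeq transcript start on GRCh38.p14. Windows were present for 9 of the 10 genes, SHMT2 being the one without, and 3 of the 9 held a match. The core was present in 3.61% of all 35116 windows and in 4.45% of the 27305 genes with a window. The 3 matches are shown because these genes belong to different roles below, and capitals mark the matched core, written on the strand that carries it.
ATF3, chr1:212565206-212565235: aaggtcaggaTGATGGAAGgctgtcatatt
ASNS, chr7:97872457-97872486: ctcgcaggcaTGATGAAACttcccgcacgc
CHAC1, chr15:40953251-40953280: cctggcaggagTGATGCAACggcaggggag
The ASNS gene lies on the minus strand and its core reads along the gene, with its first base at position -68 from the transcript start. The ATF3 core reads along its plus-strand gene, at position -191 from the start of the upstream of its 2 windows. The CHAC1 core reads on the strand opposite to the gene, at position -210. These positions count from RefSeq starts, which differ from the GENCODE gene bounds given below. By those bounds the ASNS and CHAC1 stretches shown lie inside the gene, and the ATF3 stretch lies before it. A match is a description of letters and not of a bound site, and the windows without one leave longer stretches of these genes unread.

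Total counts ran from 5318159 to 7864343 per library. TPX2, the targeted gene of the mitotic spindle, was at 327 ± 27.1 CPM (read counts scaled to a common library size; SD, n = 4) with siNTC. With si45 it was at 91.6 ± 19.8 CPM, with si46 at 81.7 ± 14.3 CPM and with si47 at 71.5 ± 3.37 CPM. The si45 library of replicate 3 stood apart with 121 CPM of TPX2. All 10 markers of adrenergic neuroblastoma cells were expressed enough to test, with a summed level of 4989 to 5713 CPM over the libraries. Among them DBH, for noradrenaline synthesis, fell by 0.56 on the log2 scale (12 of 12 knockdown libraries below all controls) and HAND2 rose by 0.23 (12 of 12 above) in the mean contrast of edgeR. All 12 knockdown libraries lay below all controls for 1.03% of the genes tested and above them for 1.49%. The part of DBH and HAND2 in the results below was not tested. Mesenchymal and Schwann cell markers summed to 32.8 to 81.96 CPM (3 of 8 tested, SOX10 at 0), epithelial and endothelial markers to 2.08 to 10.8 CPM (1 of 6 tested, KRT5 at 0) and leukocyte markers to 0 to 3.70 CPM (0 of 5 tested, CD3E and LYZ at 0).

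With TPX2 depleted, 4 stress factors and effectors rose on average, while ATF4 itself, ASNS and the serine enzymes did not pass the test and TRIB3 passed or not with the tool used. Averaged over the 3 siRNAs, ATF3, DDIT3, DDIT4 and CHAC1 rose between 2.04-fold and 3.32-fold (edgeR quasi-likelihood test, adjusted p under 0.05). This made 4 of 10 genes higher and 0 lower, where 7.14% of all tested genes were called, 3.61% higher and 3.53% lower. At an unadjusted p under 0.05 the counts were 6 higher and 1 lower, and 0 were lower by DESeq2 or limma-voom. The count of higher genes was 5, with TRIB3 added, by DESeq2, with no low-count filter or with the replicate block, and 4 by limma-voom. Leaving out 1 library gave 3 to 5 higher genes. The ATF3 call was lost when any 1 control library was left out. The median log2 fold change of the 10 genes was 0.86, against -0.0011 over all genes tested.

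Under si47 the number was 5 of 10, with TRIB3 added, where 9.74% of all genes were called, 4.91% higher and 4.83% lower. Under si46 DDIT4 alone passed, where 3.4% of all genes were called, 2.14% higher and 1.25% lower. The si45 contrast gave 0 of 10 at an adjusted p under 0.05 (edgeR; 1.34% of all genes called, 1.01% higher and 0.324% lower), 5 higher at an unadjusted p under 0.05, 1 by DESeq2 and 0 by limma-voom. Medians of the 10 were 0.56, 0.56 and 1.19 under si45, si46 and si47, against medians of at most 0.0043 over all genes. The si46 count was 0 without siNTC replicate 1, 3 or 4 or si46 replicate 1, 2 or 4, but it reached 4 when si46 replicate 3 was left out, 3 when si47 replicate 2 was, and 2 when si47 replicate 1 or 3 was. The si45 count was 1 without si45 replicate 3 or si47 replicate 2. That count was 2 with only the groups compared, 3 with no low-count filter and 4 with the replicate block.

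**Figure D1:**
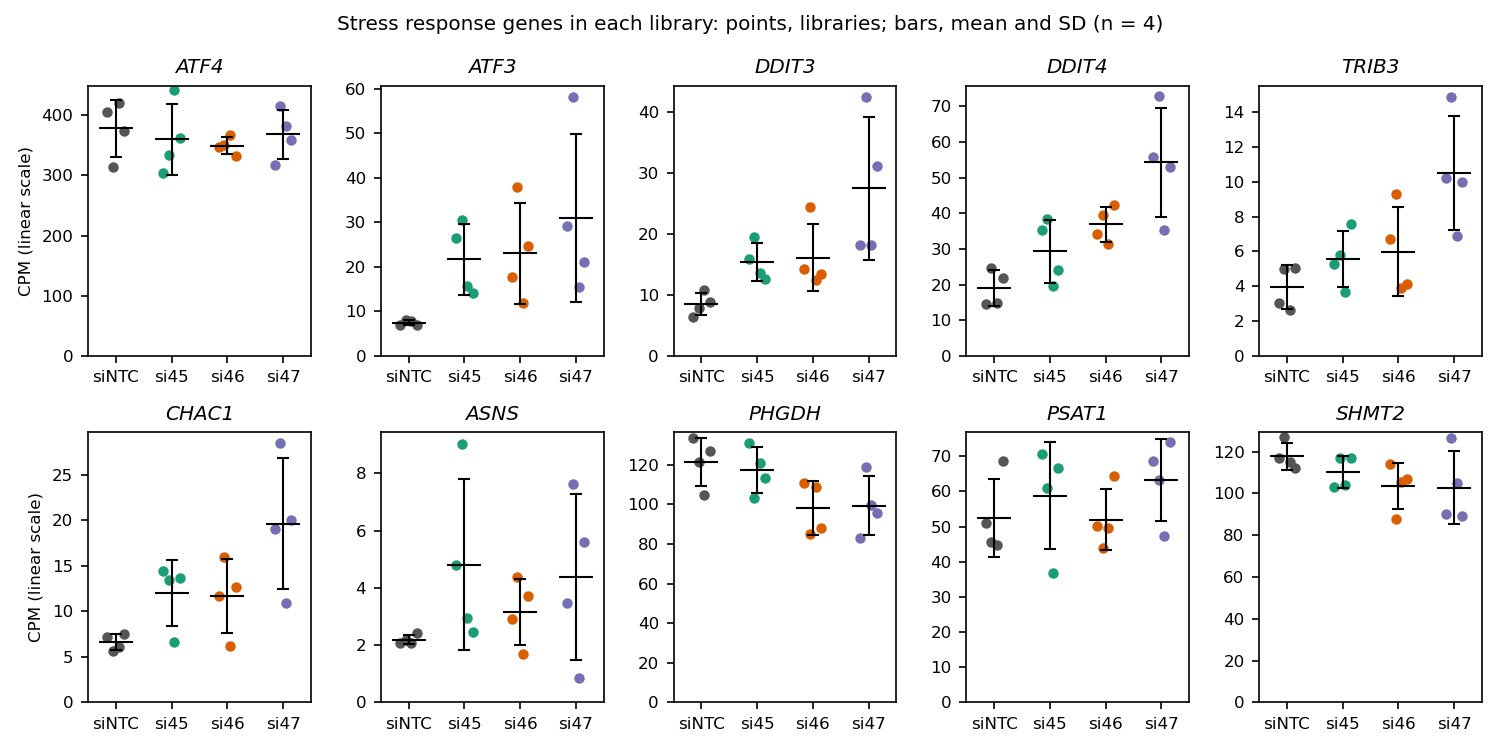
Level of each gene in each of the 16 libraries, in CPM on a linear axis from 0, by siRNA group; points are libraries and bars the mean and SD of 4. ATF3 and DDIT3 have all 12 knockdown libraries above all 4 controls. DDIT4, CHAC1 and ASNS have 10 of 12 above and TRIB3 has 9. ATF4, PHGDH, PSAT1 and SHMT2 also overlap between groups, with at most 2 of 12 above.

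In the control libraries the genes covered a wide range of levels. A QuantSeq read comes from the 3' end of a transcript, so these CPM values do not scale with transcript length. ATF4 was the most abundant at 379 ± 47.6 CPM (SD, n = 4), followed by PHGDH at 121.5 ± 12.2, SHMT2 at 118 ± 6.48, PSAT1 at 52.5 ± 11.1 and DDIT4 at 18.98 ± 5.11 CPM. DDIT3 (8.47 ± 1.84), ATF3 (7.47 ± 0.570) and CHAC1 (6.59 ± 0.886) came next, and TRIB3 (3.93 ± 1.26) and ASNS (2.20 ± 0.163) were lowest. The ranges of the 4 control libraries overlapped between PHGDH and SHMT2, between DDIT3 and ATF3, and between ATF3 and CHAC1. They did not overlap at the other steps of this order, from ATF4 down to TRIB3 and ASNS. ASNS had 5 to 59 counts per library and TRIB3 14 to 82, so counting error is largest for these genes.

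ATF4 encodes the basic leucine zipper factor at the centre of the response (chromosome 22, 39519695 to 39522685, plus strand, GENCODE v29 on GRCh38). Its level was 405, 313, 421 and 375 CPM in siNTC replicates 1 to 4, and 304, 334, 442 and 362 CPM in si45. The si46 libraries held 348, 351, 367 and 333 CPM and the si47 libraries 317, 415, 383 and 359 CPM. The 4 groups overlapped, with 1 of 12 knockdown libraries above and 1 below all controls. Log2 fold changes were -0.07, -0.11 and -0.04 (SE 0.102 each) under si45, si46 and si47, and -0.08 (SE 0.0827) for their mean (edgeR adjusted p = 0.668). The sign changed to positive, at 0.01, under si45 without si45 replicate 1, and under si47 at 0.01 without siNTC replicate 3 and 0.03 without si47 replicate 1.

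DDIT3 encodes CHOP, a bZIP partner of C/EBP proteins that is induced by ATF4 and promotes cell death under lasting stress (chromosome 12, 57516588 to 57521737, minus strand). It was at 6.41, 7.82, 10.8 and 8.85 CPM in the controls, at 15.8, 19.6, 13.5 and 12.7 CPM in si45, at 14.3, 24.4, 12.5 and 13.4 CPM in si46 and at 18.2, 42.5, 18.1 and 31.2 CPM in si47. All 12 knockdown libraries lay above all 4 controls, a pattern found for 1.49% of the genes tested. DDIT3 rose 2.25-fold over the mean of the siRNAs (log2 fold change 1.17, SE 0.232, edgeR adjusted p = 0.0020). Under si47 it rose 3.25-fold (1.70, SE 0.267, edgeR adjusted p = 1.2e-04), and the si45 and si46 values of 0.87 (SE 0.273) and 0.93 (SE 0.272) did not pass (edgeR adjusted p = 0.138 and 0.0586). The si46 value passed without si46 replicate 3 (edgeR adjusted p = 0.040) or si47 replicate 1, 2 or 3 (0.036, 0.021 and 0.032), and with DESeq2 (adjusted p = 0.020). Both values passed in edgeR with the replicate block (adjusted p = 0.0080 for si45 and 0.0027 for si46). They also passed with no low-count filter (edgeR adjusted p = 0.0030 and 7.5e-04) or with only the groups compared (0.037 and 0.014). MARS1, the methionyl-tRNA synthetase gene, and MBD6 overlap DDIT3 on the opposite strand with more counts (7450 and 3258 against 1608 in all libraries), and strand use in the counting is not given in the sources used here. In the mean contrast MARS1 had a log2 fold change of 0.11 (SE 0.0921) and MBD6 one of 0.10 (SE 0.127), and neither passed in edgeR (adjusted p = 0.530 and 0.707).

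ATF3 encodes a stress-induced bZIP factor that binds ATF/CRE sites, mostly as a repressor (chromosome 1, 212565334 to 212620777, plus strand). Control libraries held 7.05, 8.13, 7.75 and 6.94 CPM. Levels were 26.4, 30.4, 15.6 and 14.2 CPM in si45, 17.7, 38.0, 11.8 and 24.6 CPM in si46 and 29.2, 58.1, 15.5 and 21.2 CPM in si47. Again all 12 knockdown libraries exceeded all controls, but they varied widely within each group, with replicate 2 the highest under each siRNA. The rise was 3.32-fold over the mean of the siRNAs (log2 fold change 1.73, SE 0.412, edgeR adjusted p = 0.0227) and 4.12-fold under si47 (2.04, SE 0.466, edgeR adjusted p = 0.0139). Values of 1.54 (SE 0.471) and 1.61 (SE 0.470) under si45 and si46 did not pass (edgeR adjusted p = 0.185 and 0.0927). Under si45 ATF3 passed without si47 replicate 2 (edgeR adjusted p = 0.039), and under si46 without si46 replicate 3 (0.049) or si47 replicate 2 (0.017). With the replicate block the edgeR adjusted p was 3.8e-05 under si45 and 1.3e-05 under si46. With only the groups compared it was 8.7e-05 and 6.1e-04, and DESeq2 gave an adjusted p of 0.031 and 0.011. The call for the mean was lost when any 1 control library was left out (edgeR adjusted p = 0.076, 0.067, 0.068 and 0.074 for siNTC replicates 1 to 4).

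DDIT4 encodes REDD1, an inhibitor of mTORC1 signalling (chromosome 10, 72273920 to 72276036, plus strand). In siNTC it was at 14.6, 24.7, 14.8 and 21.9 CPM. It was at 35.2, 38.4, 19.6 and 24.0 CPM in si45, at 34.1, 39.6, 31.5 and 42.3 CPM in si46 and at 55.8, 72.8, 35.5 and 52.998 CPM in si47. All si46 and si47 libraries were above all controls, and 2 of 4 si45 libraries were. For 4 libraries of 1 siRNA above all controls the share of genes tested was 3.36% for si45, 5.06% for si46 and 7.41% for si47. DDIT4 rose 1.93-fold under si46 (log2 fold change 0.95, SE 0.237, edgeR adjusted p = 0.0303), 2.85-fold under si47 (1.51, SE 0.234, edgeR adjusted p = 3.1e-04) and 2.04-fold over the mean (1.03, SE 0.202, edgeR adjusted p = 0.0033). With si45 DDIT4 stood at 0.63 (SE 0.239, edgeR adjusted p = 0.284), short of the threshold. The si45 value passed in edgeR with no low-count filter (adjusted p = 0.0043) or with the replicate block (0.0044). The si46 call was lost on removing siNTC replicate 1, 3 or 4, with an edgeR adjusted p of 0.101, 0.095 and 0.053, or si46 replicate 1, 2 or 4, with 0.056, 0.102 and 0.100.

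CHAC1 encodes an enzyme that degrades glutathione and is a well known output of ATF4 (chromosome 15, 40952962 to 40956519, plus strand). Its controls held 7.21, 5.63, 6.05 and 7.46 CPM. Knockdown libraries held 14.4, 13.5, 6.59 and 13.6 CPM in si45, 11.6, 16.005, 6.23 and 12.7 CPM in si46 and 19.0, 28.5, 10.9 and 19.98 CPM in si47. The 2 knockdown libraries of 12 that were not above all controls were replicate 3 of si45 and replicate 3 of si46. CHAC1 rose 2.96-fold under si47 (log2 fold change 1.57, SE 0.283, edgeR adjusted p = 4.1e-04) and 2.12-fold over the mean (1.08, SE 0.245, edgeR adjusted p = 0.0054). Values of 0.87 (SE 0.289) and 0.81 (SE 0.289) under si45 and si46 did not pass (edgeR adjusted p = 0.172 and 0.135). Each passed once replicate 3 of that group was left out, at 1.07 for si45 (edgeR adjusted p = 0.023) and 1.02 for si46 (0.028). Both also passed in edgeR with the replicate block (adjusted p = 0.016 and 0.018) or with no low-count filter (0.021 and 0.026).

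TRIB3 encodes a pseudokinase that is induced by ATF4 and DDIT3 and restrains them (chromosome 20, 362835 to 397559, plus strand). It was at 3.05, 5.01, 2.65 and 5.03 CPM in the controls, at 5.28, 5.81, 3.64 and 7.57 CPM in si45, at 6.71, 9.28, 3.87 and 4.10 CPM in si46 and at 10.2, 14.9, 6.89 and 9.99 CPM in si47. All 4 si47 libraries lay above the controls, and 3 of 4 si45 and 2 of 4 si46 libraries did. TRIB3 rose 2.64-fold under si47 (log2 fold change 1.40, SE 0.317, edgeR adjusted p = 0.0033). The mean missed the threshold at 0.83 (SE 0.274; edgeR adjusted p = 0.0578), as did si45 at 0.49 and si46 at 0.60. The mean passed with DESeq2 (adjusted p = 0.038), and in edgeR with no low-count filter (0.038) or with the replicate block (0.012). It also passed in edgeR without si45 replicate 3, si46 replicate 3, si46 replicate 4 or si47 replicate 3 (edgeR adjusted p = 0.032, 0.037, 0.049 and 0.034).

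**Figure D2:**
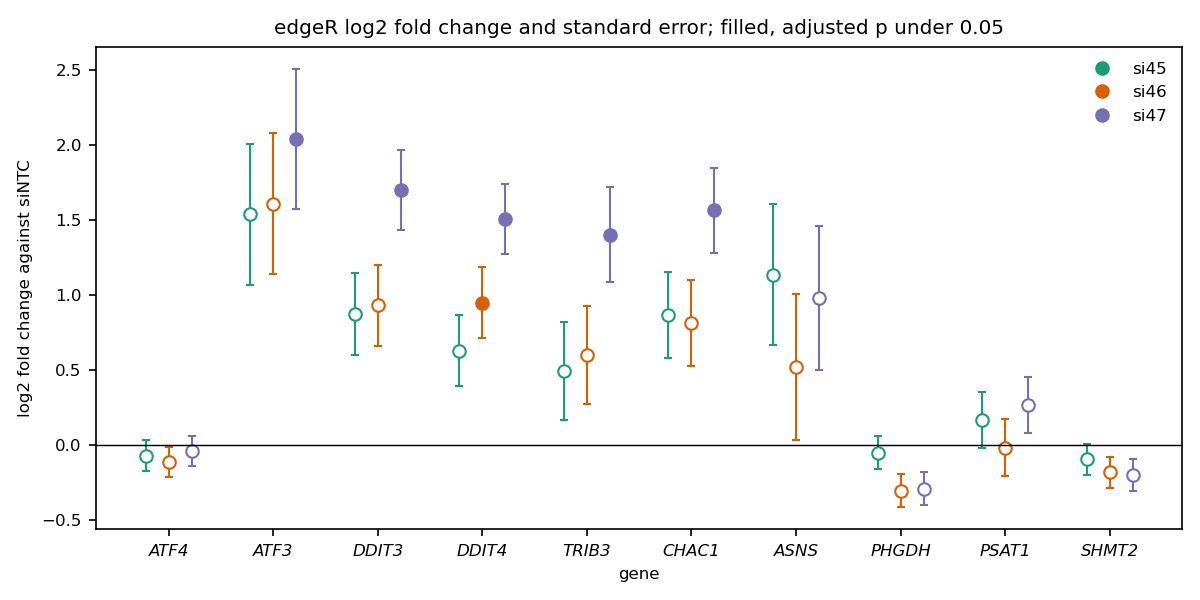
Log2 fold change of each gene against siNTC (y axis) for the 3 siRNAs (colours), with bars of 1 standard error; filled points have an edgeR adjusted p under 0.05. The filled points are ATF3, DDIT3, DDIT4, TRIB3 and CHAC1 under si47 and DDIT4 under si46, and the points of ATF4, PHGDH, PSAT1 and SHMT2 lie between -0.31 and 0.27.

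The 4 metabolic enzymes made up the other part of the set. ASNS, which makes asparagine from aspartate (chromosome 7, 97852118 to 97872542, minus strand), was at 2.08, 2.19, 2.08 and 2.43 CPM in siNTC. It was at 4.81, 9.02, 2.95 and 2.46 CPM in si45, at 2.91, 4.36, 1.68 and 3.73 CPM in si46 and at 3.46, 7.62, 0.840 and 5.59 CPM in si47. Of the 12 knockdown libraries 10 were above all controls, and replicate 3 of si46 and of si47 were below all of them. Its log2 fold changes of 1.14 (SE 0.473), 0.52 (SE 0.488) and 0.98 (SE 0.478) under si45, si46 and si47 and 0.88 (SE 0.407) for the mean did not pass (edgeR adjusted p = 0.323, 0.695, 0.210 and 0.211). Without si47 replicate 3 the si47 value was 1.32 and passed (edgeR adjusted p = 0.040). ASNS is uncertain in another way, since its pseudogene ASNSP1 held 100 counts against 351 for ASNS over all libraries, and how reads matching both were divided is not known.

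PHGDH, PSAT1 and SHMT2 supply serine and one-carbon units. PHGDH catalyses the first step of serine synthesis (chromosome 1, 119648411 to 119744226, plus strand), and its levels were 133, 121, 105 and 127 CPM in siNTC, 131, 103, 121 and 113.5 CPM in si45, 111, 85.1, 109 and 87.9 CPM in si46 and 83.0, 119, 99.8 and 95.8 CPM in si47. No knockdown library exceeded all controls and 6 of 12 were below all of them. The PHGDH values of -0.05, -0.31 and -0.29 (SE 0.11 each) and of -0.22 (SE 0.0888) for the mean did not pass (edgeR adjusted p = 0.913, 0.136, 0.0912 and 0.145). The si47 value passed without si47 replicate 2, at -0.39 (edgeR adjusted p = 0.034), and the si45 value was 0.01 without si45 replicate 2.

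PSAT1, the next enzyme of the serine pathway (chromosome 9, 78297143 to 78330093, plus strand), ranged from 44.8 to 68.7 CPM in siNTC, 36.9 to 70.8 in si45, 43.8 to 64.3 in si46 and 47.2 to 74.0 CPM in si47. SHMT2, the mitochondrial enzyme that passes a carbon from serine to folate (chromosome 12, 57229327 to 57234935, plus strand), ranged from 112 to 127, 103 to 117, 87.8 to 114 and 89.1 to 126 CPM in the same order. The groups of both genes overlapped, although 8 of 12 knockdown libraries had less SHMT2 than any control. The mean log2 fold changes were 0.14 (SE 0.154) for PSAT1 and -0.16 (SE 0.0844) for SHMT2, and neither passed (edgeR adjusted p = 0.678 and 0.279). PSAT1 under si46 was at -0.02 (SE 0.188) and turned positive without siNTC replicate 4, si46 replicate 2 or si46 replicate 3 (0.14, 0.05 and 0.01).

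The siRNAs were then compared directly. ATF3, DDIT3, DDIT4, TRIB3 and CHAC1, and also PSAT1 and ATF4, had their highest log2 fold change under si47, a position held by 36.8% of the genes tested. In the contrast of si47 with si45, DDIT4 differed by 0.88 (SE 0.226), DDIT3 by 0.83 (SE 0.252), TRIB3 by 0.91 (SE 0.306), CHAC1 by 0.70 (SE 0.267) and ATF3 by 0.50 (SE 0.421) on the log2 scale. None of the 10 genes passed in edgeR (0.169% of all genes did, 0.0705% higher and 0.0986% lower), with 4 higher and 1 lower at an unadjusted p under 0.05 and 1 by DESeq2. With the replicate number as a block, DDIT4 (0.88, edgeR adjusted p = 2.7e-05), DDIT3 (0.78, 0.011), CHAC1 (0.69, 0.042) and TRIB3 (0.90, 0.049) passed. Libraries of si45 and si47 with the same number were most alike in their deviations from the group means. So were those of siNTC and si45, of si45 and si46, and of si46 and si47. Leaving out si47 replicate 3 gave 2 calls, DDIT4 (edgeR adjusted p = 0.009) and DDIT3 (0.046).

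Between si47 and si46 the differences were 0.77 (SE 0.251) for DDIT3, 0.80 (SE 0.304) for TRIB3, 0.75 (SE 0.268) for CHAC1 and 0.56 (SE 0.223) for DDIT4. These did not pass in edgeR (0 of 10 genes called, 4 at an unadjusted p under 0.05, 0 by DESeq2; 0.0493% of all genes were called, 0.0211% higher and 0.0282% lower). Between si46 and si45 the 10 differences lay between -0.62 (ASNS, SE 0.456) and 0.32 (DDIT4, SE 0.229), with 0 calls in edgeR or DESeq2 (0.0282% of all genes, 0.0141% in each direction), and 1 gene, PHGDH, at an unadjusted p under 0.05. TPX2 was lower under si47 than under si45 by a log2 difference of -0.36 (SE 0.123), which had an unadjusted p of 0.0070 and did not pass after adjustment in edgeR (adjusted p = 0.246). All 4 si47 libraries (68.7 to 76.3 CPM of TPX2) lay below all 4 si45 libraries (79.4 to 121 CPM). Its differences of -0.20 (SE 0.123) between si47 and si46 and -0.16 (SE 0.122) between si46 and si45 did not pass (edgeR adjusted p = 0.785 and 1). The part of residual TPX2 in the differences between siRNAs was not tested.

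**Figure D3:**
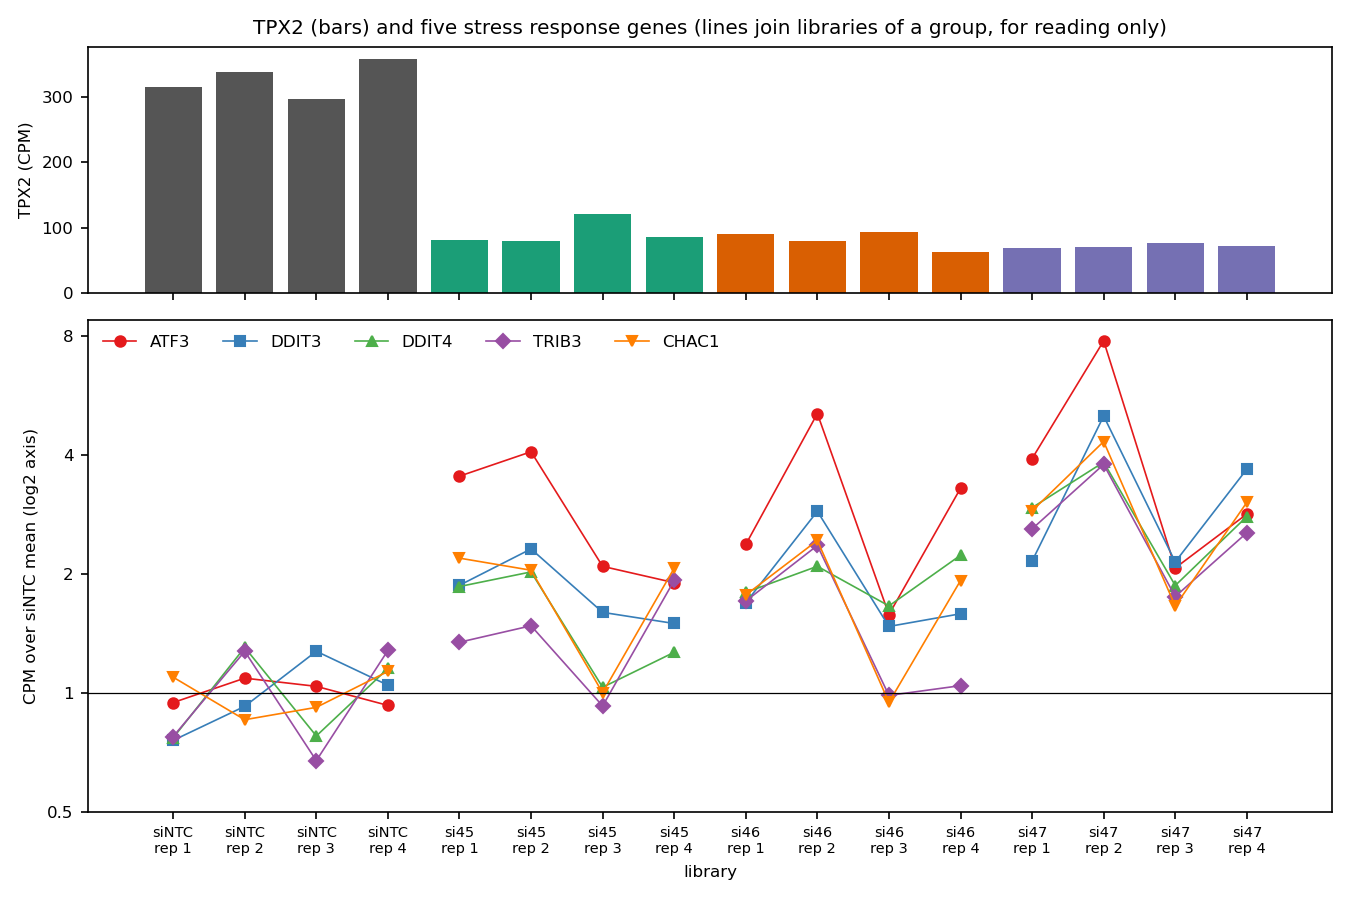
Upper panel: TPX2 in CPM (bars from 0) in each of the 16 libraries. Lower panel: ATF3, DDIT3, DDIT4, TRIB3 and CHAC1 in the same libraries as a ratio to their siNTC mean, on a log2 axis. In each siRNA group TPX2 is highest in replicate 3, and TRIB3 and CHAC1 are lowest there.

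The higher genes varied along with one another from library to library. TRIB3, CHAC1 and DDIT4 had their lowest si45 level in replicate 3, and under si46 and under si47 replicate 3 was the lowest library for all of ATF3, DDIT3, DDIT4, TRIB3, CHAC1 and ASNS. Replicate 3 also had the most TPX2 left in each siRNA group, at 121 CPM in si45, 93.8 in si46 and 76.3 in si47. The part of that residual TPX2 in the lower stress genes was not tested. Replicate 2 of si47 was the highest si47 library for ATF4 and for each of these 6 genes. The labels name no batch, so replicate number is a label shared across groups and not a known culture or day.

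After the group means were removed, deviations in log2 CPM over the 16 libraries had a Pearson r of 0.50 to 0.82 (median 0.72) in the 15 pairs among ATF3, DDIT3, DDIT4, TRIB3, CHAC1 and ASNS. In the other 30 of the 45 pairs r ran from -0.61 to 0.61, with a median of 0.04. These 6 genes were set apart after their values were seen, all genes of a library share its depth and RNA quality, and these correlations are a description without a test. Deviations of ATF4 were tested against those of the other 9 genes. The strongest relation was with DDIT4, where r was -0.61 (permutation p = 0.0539) and rho -0.58 (permutation p = 0.0639), or 0.439 and 0.327 after Benjamini-Hochberg adjustment over 9 relations. Without siNTC replicate 2 and si45 replicate 3, the libraries farthest from the median of ATF4, r was -0.42. No relation with ATF4 passed the adjustment, the lowest adjusted permutation p being 0.439 for r and 0.327 for rho.

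The rest of the pathway was read from lists of related genes on the average of si45, si46 and si47 relative to siNTC, where 3.61% of all genes were higher and 3.53% lower. Of 14 genes for the eIF2 kinases, eIF2, its exchange factor and its phosphatase, 2 were higher and 0 lower, with a median log2 fold change of 0.01. Both were regulatory subunits of the phosphatase that reverses the response. PPP1R15A, or GADD34, rose by 1.10 (SE 0.183, edgeR adjusted p = 1.9e-04) and PPP1R15B by 0.28 (SE 0.0792, edgeR adjusted p = 0.0246), each in 12 of 12 knockdown libraries above all controls. The kinase genes EIF2AK1, EIF2AK2, EIF2AK3 and EIF2AK4 had values of 0.01, -0.10, -0.38 and 0.01 and did not pass. Removing siNTC replicate 1, 3 or 4 cost PPP1R15B its call, at an edgeR adjusted p of 0.121, 0.053 and 0.082, and left 1 gene called.

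Among bZIP partners and related factors, 4 of 16 tested were higher and 0 lower (median 0.14). The JUN level was 59.9 CPM with siNTC and 185 with si45, 221 with si46 and 286 CPM with si47, a rise of 1.92 on the log2 scale (SE 0.287; adjusted p = 0.0013 in edgeR). JUNB rose by 0.85 (SE 0.167), FOS by 2.16 (SE 0.489) from 1.24 CPM, and CEBPB, a partner of ATF4, by 0.53 (SE 0.162, edgeR adjusted p = 0.0383). For JUNB 11 knockdown libraries lay above all controls and 1 below all of them. FOS and CEBPB did not pass with limma-voom (adjusted p = 0.058 and 0.079). ATF5, a relative of ATF4, was called under si47 (0.95, SE 0.204, edgeR adjusted p = 0.0047). JUN, JUNB and FOS form the AP-1 factor with ATF-family proteins. The CEBPB call was lost in 10 of the 16 fits that left out a library, among them each siNTC library (edgeR adjusted p = 0.050, 0.107, 0.108 and 0.122 without siNTC replicates 1 to 4), replicates 1 and 4 of si45 (0.063 and 0.058), replicates 2 and 4 of si46 (0.059 and 0.058) and replicates 1 and 4 of si47 (0.058 and 0.055).

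Of the other stress targets linked to ATF4, 7 of 13 tested were higher and 0 lower (median 0.73). TNFRSF10B, which encodes the death receptor DR5, rose by 1.38 (SE 0.120), BBC3, which encodes the BH3-only protein PUMA, by 2.64 (SE 0.222), SESN2 by 1.59 (SE 0.169) and GADD45A by 1.03 (SE 0.135). GDF15 (2.75, SE 0.485), KLHL24 (0.73, SE 0.119) and TXNIP (0.39, SE 0.104) were the remaining 3, named after their values were seen. The TXNIP call was lost when siNTC replicate 1 (edgeR adjusted p = 0.112) or 3 (0.093) was left out. HMOX1, for heme breakdown, was called under si46 (1.53, SE 0.334, edgeR adjusted p = 0.0203) and ADM2 under si47 (0.70, SE 0.221, edgeR adjusted p = 0.0397). The HMOX1 call was lost when siNTC replicate 1, 2 or 3 or si46 replicate 2 or 4 was left out (edgeR adjusted p = 0.060 to 0.068), and that of ADM2 when siNTC replicate 1, 2 or 3 or si47 replicate 2 or 4 was (0.053 to 0.139) and with limma-voom (0.069). TNFRSF10B, BBC3, SESN2, GADD45A and GDF15 are also known p53 targets.

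**Figure D4:**
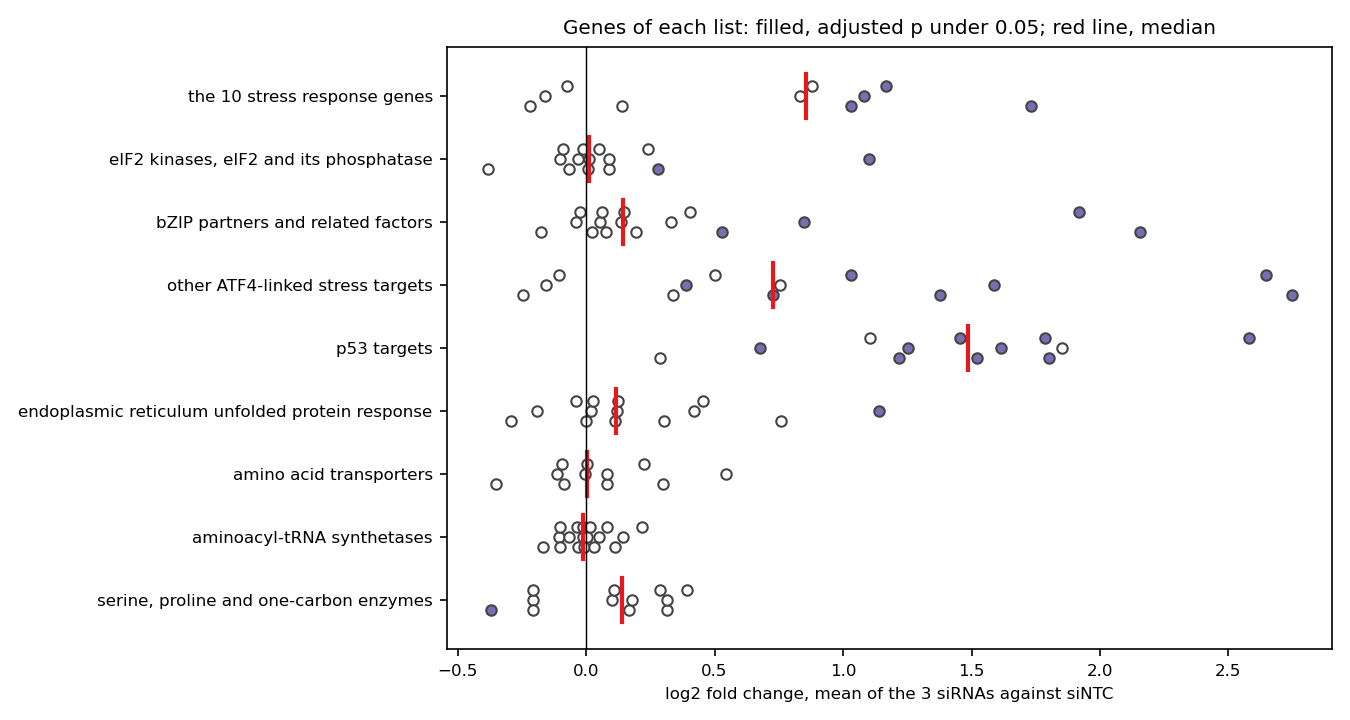
Log2 fold change of each tested gene, mean of the 3 siRNAs against siNTC (x axis), by gene list (rows); filled points have an edgeR adjusted p under 0.05 and red lines are list medians. The p53 targets have a median of 1.49 and the 10 stress response genes one of 0.86, while amino acid transporters and aminoacyl-tRNA synthetases centre on 0.

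p53 targets moved in the same libraries. Of 12 such genes 9 were higher and 0 lower, with a median of 1.49. Their summed level was 266 to 330.0 CPM in siNTC, 662 to 853 in si45, 839 to 1099 in si46 and 985 to 1480 CPM in si47. PHLDA3, TP53INP1, FDXR and SESN1 rose by 1.79, 1.62, 1.52 and 1.80 (edgeR adjusted p at most 2.2e-07), each in 12 of 12 knockdown libraries above all controls. The part of p53 in the changes of ATF3, DDIT3, DDIT4, CHAC1 and TRIB3 was not tested.

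Few genes that supply amino acids and charged tRNAs passed. None of the 11 tested amino acid transporters passed in edgeR (2 higher and 1 lower at an unadjusted p under 0.05; 1 by DESeq2, 0 by limma-voom), with a median of 0.0034. SLC7A11, the cystine transporter, had a value of 0.55 (SE 0.181, edgeR adjusted p = 0.0604). It passed under si46 (0.76, SE 0.214, edgeR adjusted p = 0.0394), and in the mean contrast once replicate 3 of siNTC, of si45, of si46 or of si47 was left out (edgeR adjusted p = 0.043, 0.035, 0.046 and 0.024). The si46 call of SLC7A11 was lost on removing siNTC replicate 1, 2 or 4 or si46 replicate 1, 2 or 4 (edgeR adjusted p = 0.054 to 0.153). Of 18 aminoacyl-tRNA synthetase genes 0 passed in edgeR (1 higher and 1 lower unadjusted, 0 by DESeq2 or limma-voom), and their median was -0.01. Of 12 tested serine, proline and one-carbon enzymes, 1 was lower and 0 higher, as also by DESeq2 and by limma-voom. Unadjusted in edgeR, 3 were higher and 3 lower. The gene lower after adjustment was MTHFD1, a cytosolic folate enzyme. MTHFD1 fell by 0.37 (SE 0.0790, edgeR adjusted p = 0.0023), below all controls in 10 of 12 libraries. ALDH1L2, a folate enzyme, was called under si47 (0.64, SE 0.175, edgeR adjusted p = 0.0145), a call lost on removing siNTC replicate 1 or 2 (0.070 and 0.068). MTHFD2, the mitochondrial folate enzyme, was at 0.17 (SE 0.0891) and did not pass.

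The endoplasmic reticulum branch of the unfolded protein response had 1 of 14 genes higher and 0 lower, with a median of 0.12. Unadjusted, 3 were higher and 2 lower. DESeq2 gave 2 higher and 0 lower, and limma-voom 0 in either direction. ERN1, which encodes the stress sensor IRE1, rose by 1.14 (SE 0.331, edgeR adjusted p = 0.0318). The call was lost when any 1 control library was removed, with an edgeR adjusted p of 0.119, 0.057, 0.055 and 0.131 for siNTC replicates 1 to 4. DNAJB9, a chaperone gene, was at 0.76 (SE 0.250, edgeR adjusted p = 0.0579) and HSPA5, which encodes the chaperone BiP, at 0.11 (SE 0.0845). DNAJB9 was called under si47 (1.03, SE 0.293, edgeR adjusted p = 0.0195), a call lost on removing siNTC replicate 3 or 4 or si47 replicate 1 or 2 (0.063 to 0.096). HSP90B1, which encodes the chaperone GRP94, fell by 0.62 under si45 (SE 0.100, edgeR adjusted p = 2.3e-04) and was at -0.02 under si46 and 0.07 under si47. The direct contrasts of si46 and of si47 with si45 were 0.60 and 0.68 for HSP90B1 (edgeR adjusted p = 0.0036 and 4.4e-04). DNAJB9 passed when siNTC replicate 2 or replicate 3 of si45, si46 or si47 was left out (edgeR adjusted p = 0.027, 0.044, 0.047 and 0.036). Leaving out si45 replicate 3 gave 3 higher genes, with MANF added (0.35, edgeR adjusted p = 0.043), and 1 lower gene, SDF2L1 (-0.33, 0.023). SDF2L1 also passed without si47 replicate 3 (0.034) or siNTC replicate 3 (0.023). ATF5, HMOX1, ADM2, ALDH1L2, HSP90B1, DNAJB9, MANF and SDF2L1 were named after their values were seen.

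The genes most like each member were those with the highest Pearson r of log2 CPM over the 16 libraries, among genes with a mean count of at least 20. For DDIT3 they were RPS19 (r = 0.94), GDF15 (0.93) and IER3 (0.91), and for DDIT4 ARC (0.93), GAS5 (0.93) and PPP1R15A (0.93). ATF3 was most like ASCC3 (0.95), TLE4 (0.95) and TENT5A (0.95). CHAC1 was nearest to EEF1A1 (0.93), RPL6 (0.93) and COX7C (0.92), and TRIB3 to RPL6 (0.91) and DYNC2LI1 (0.89). ATF4 had other neighbours, SF3B5 (0.90), RPS4X (0.87) and ZFP91 (0.86). The nearest genes of ASNS were HSF1 (0.84), R3HDM1 (0.84) and LAMB2 (0.82), those of PHGDH MPND (0.84), DGAT1 (0.80) and PLEC (0.79), those of PSAT1 USB1 (0.85), EID1 (0.84) and PSMB4 (0.84), and those of SHMT2 NAP1L4 (0.85), SIX5 (0.81) and SLC16A7 (0.81). These r values hold the difference between groups as well as that between libraries, and were picked as the highest among many genes.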

How the data were processed

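Total RNA of IMR32 cells was profiled with Lexogen's QuantSeq 3' end kit and single-end reads, per the labels' protocols. The authors deposited 1 table of raw counts per Ensembl gene, which were not normalized. The submitters' processing notes name FastQC 0.11.7, STAR 2.7.2b, edgeR 3.36.0, limma 3.50.3 and GRCh38; the counter, the annotation, strand use and any collapsing of duplicates are not given in the sources used here. PCR copies, if kept, are not independent molecules, so counting error covers only part of the error. Each of the 16 columns carries the siRNA and replicate of 1 sample title. Symbols came from a gene name table that matched 58434 identifiers, and positions from GENCODE v29 on GRCh38.

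Counts were tested in edgeR 4.0.16 (R 4.3.3) with filterByExpr (minimum count 10, minimum total 15), TMM factors and 1 robust quasi-likelihood fit of the 4 group means over 16 libraries. p-values were adjusted by Benjamini-Hochberg over all genes within each contrast, at a threshold of 0.05, and a standard error is the log2 fold change over the square root of F. CPM use TMM library sizes. On simulated data for si47 against siNTC, 80% of 200 genes changed by 1 on the log2 scale were recovered with 4 false calls among 13617 genes. The changed genes had an expected control count of at least 20, and the simulation held no effect of replicate number. Recovery was therefore not measured for genes as low as ASNS (5 to 59 counts per library) or for the other contrasts. No pair of replicates matched within sampling noise (chi-square of 4.36 or more per degree of freedom). Deviations from group means correlated over 0.1 in all 4 same-numbered pairs of si45 and si47 libraries (r = 0.12 to 0.242). Each other combination of groups had at least 1 pair at or under 0.1. A library correlated best with its own number in 4 of 4 cases for si45 and si47, siNTC and si45, si45 and si46, and si46 and si47. It did so in 3 of 4 for siNTC and si47 and in 2 of 4 for siNTC and si46. This pairing comes from the data and not from the labels, and the main fit did not use it. Correlations with ATF4 used 100000 permutations within groups.

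The genes and the lists were chosen with earlier results of these data known. The named genes are the 10 members, up to 4 genes per list past the threshold in the mean contrast, lowest p first, and the 3 genes most like each member, of which 1 is not reported here. Other genes were named after their values were seen: the eIF2 kinases, MARS1, MBD6, SLC7A11, MTHFD2, HSPA5, DBH, HAND2 and those said to be so in the text. The alternatives tried were other scalings (RLE, upper quartile), other tools (DESeq2 1.42.0, and limma-voom in limma 3.58.1), other filters (none, or a minimum of 10 counts in each library), a fit of the compared groups alone, a replicate block, stricter thresholds, a shorter motif and the removal of each library in turn.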

Additional observations from a re-analysis of the deposited data

Results flagged for a closer look

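In 44 groups of 4 libraries (CPM of the 10 genes and of TPX2), 3 had 1 library far from the other 3 relative to the range of the group; chance gives about 2.2. The si45 library of replicate 3 held 6.59 CPM of CHAC1, and the other si45 libraries 13.5 to 14.4 CPM. The same library held 121 CPM of TPX2, and the others 79.4 to 85.1 CPM. The si46 library of replicate 2 held 24.4 CPM of DDIT3, and the others 12.5 to 14.3 CPM.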

How the results depend on the processing

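Over 24 alternatives, 2097 of 2214 single-gene values kept their direction and their side of the threshold, 50 newly passed, 32 no longer passed and 35 changed sign, the last all in values that had not passed. The count of genes higher under si45 (0) was 1 with DESeq2, 3 with no low-count filter, 2 with only the groups compared and 4 with the replicate block. Under si46 (1) it was 3 with DESeq2, with no filter and with only the groups compared, 4 with the block, and 0 at an adjusted p under 0.01 or with a 2-fold minimum. Under si47 1 gene, PHGDH, was lower with the block. For si47 against si45 (0) the count was 1 with DESeq2, 2 with no filter and 4 with the block, and for si47 against si46 (0) it was 1 with no filter and 2 with the block. Same-numbered libraries of different groups share only a number in the labels. Each correlated best with its own number in si45 and si47, siNTC and si45, si45 and si46, and si46 and si47 (4 of 4 libraries). This is a hint from the data. Among lists, bZIP factors higher (4) fell to 2 with limma-voom, transporters higher (0) were 1 with DESeq2 or no filter and 2 with the block, and one-carbon enzymes lower (1) were 2 with the block. Reticulum genes higher (1) were 2 with DESeq2, 0 with limma-voom and 4 with no filter or the block, and lower (0) were 1 with no filter or the block. The cause of these shifts was not tested. Leaving out 1 library gave 0 to 1 genes higher under si45, 0 to 4 under si46, 0 to 1 lower under si47 and 0 to 2 changed between si47 and si45; it gave 0 to 1 transporters higher, 1 to 2 eIF2 genes higher, 0 to 3 reticulum genes higher and 0 to 1 lower. Fold changes that changed sign on leaving out 1 library ranged, for ATF4, from -0.19 to 0.011 (si45), -0.12 to 0.029 (si47), -0.12 to 0.071 (si46 against si45) and -0.046 to 0.15 (si47 against si45). For si46 against si45 the ranges were -0.28 to 0.28 for ATF3 (-0.032 with limma-voom), -0.20 to 0.19 for DDIT3, -0.16 to 0.28 for TRIB3 and -0.25 to 0.15 for CHAC1. For si47 against si45 they were -0.56 to 0.34 for ASNS and -0.063 to 0.22 for PSAT1, and for si47 against si46 -0.057 to 0.78 for ATF3, -0.083 to 0.090 for PHGDH and -0.13 to 0.046 for SHMT2. Against siNTC they were -0.12 to 0.011 for PHGDH under si45 and -0.14 to 0.14 for PSAT1 under si46. Depth limits ASNS and TRIB3 most. The contrast of the mean cannot be fitted on fewer groups than all 4, so it has no value for only the groups compared.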
